A study of Homo sapiens with 6 samples.

Results

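The clustered protocadherins are cell-surface adhesion proteins encoded by a run of neighbouring genes on chromosome 5, in an alpha, a beta and a gamma cluster. Members were taken by symbol, as every row named PCDHA, PCDHB, PCDHGA, PCDHGB or PCDHGC followed by its number, or PCDHAC followed by its number. This gave 53 of the 16934 genes counted, with 15 in the alpha, 16 in the beta and 22 in the gamma cluster. All 53 had enough counts to be tested.

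Clustered protocadherins are best known in neurons, where each cell transcribes its own mixture of members. Every member starts from its own promoter and carries its own large first exon for the extracellular and membrane parts. In the alpha and gamma clusters that exon is spliced to constant exons that every member of the cluster shares and that encode a common cytoplasmic end, whereas beta members have no such constant exons. On the cell surface the proteins bind copies of the same member on a facing cell, and in mouse neurons this tells the branches of one cell from those of another. Which promoters are active depends on DNA methylation, on the binding of the factor CTCF next to them and on cohesin, the ring complex that brings a promoter to a distant enhancer. The C-type members at the ends of the alpha and gamma clusters are, in mouse, expressed by most neurons rather than by chance.

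RNA was sequenced from A375, an established human melanoma cell line, after CRISPR-Cas9 editing with Alt-R reagents. Cells had received an sgRNA against POLK (3 libraries), the gene of the error-prone DNA polymerase kappa, or a non-targeting control sgRNA (3 libraries), so both groups had been through editing. The labels do not tell whether the 3 libraries of a group were separate cultures or edits, so the p-values measure the spread between the libraries alone, and that spread may be technical. If each group is 1 edited population, differences between the populations and an effect of the sgRNA cannot be told apart.

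Total counts were 56891905, 46559658 and 48667179 in the POLK sgRNA libraries and 42852645, 55003324 and 48472454 in the control libraries. POLK itself had 19.2, 17.2 and 18.1 CPM (counts scaled to the size of the library) with POLK sgRNA, against 23.4, 24.0 and 22.4 CPM with control sgRNA. Its log2 fold change was −0.36 (SE 0.05, adjusted p = 7.9e-08, quasi-likelihood test in edgeR, with the Benjamini-Hochberg method over all genes tested), so the transcript was lower in every POLK sgRNA library but still present. A375 cells showed melanocyte lineage transcripts, with SOX10, the lineage's transcription factor, at 1155 ± 28.99 CPM with POLK sgRNA and 1060 ± 12.5 CPM with control sgRNA. PMEL, MLANA, TYR, TYRP1 and DCT, genes of pigment cell differentiation, averaged under 1 CPM in both groups. TYR had no count in any library but control library 1. That library held 19 TYR reads and 64 DCT reads, against at most 15 DCT reads in any other. Of the 13 melanocyte markers tested 8 were higher and 2 lower with POLK sgRNA. The 3 with the smallest p were ERBB3, TYRP1 and S100B, with log2 fold changes of 0.66, −3.86 and 0.34. TYRP1 had 5 reads over the POLK sgRNA libraries and 74 over the control libraries. The other lower marker was TFAP2A, at −0.41. For the melanocyte markers and the neuron markers that follow, the shares over all genes tested were 32.8% higher and 31.6% lower. Neuron markers, the class in which these protocadherins are best known, had 9 of 12 genes tested, with 5 higher and 3 lower, and summed to 101.3 to 104.5 CPM with POLK sgRNA against 79.2 to 83.1 CPM with control sgRNA. Most of that sum was the neurofilament gene NEFL, which was higher. SYT1, with 15.3 ± 0.94 CPM with POLK sgRNA and 7.75 ± 0.57 CPM with control sgRNA, was higher too, as were GAP43, NEFM and SNAP25. The 3 lower were STMN2, SYN1 and DCX, which had no count with POLK sgRNA and 1.01 ± 0.14 CPM with control sgRNA. The defining neuronal gene RBFOX3 stood under 1 CPM in each group and did not pass the test. The part of these markers in the results below was not tested.

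The reads of a member come partly from sequence that other members also have. Gene models of GENCODE 29 (build GRCh38, all members on the plus strand) place the alpha cluster at chr5:140786136-141012347, the beta cluster at chr5:141051135-141249365 and the gamma cluster at chr5:141330571-141512981. All 15 alpha members contain the same 3 exon blocks, of 2866 bases together, and a median of 46.5% of a member's exon bases lies in exons of another member. All 22 gamma members contain another 3 blocks, of 2181 bases, with a median share of 43.9%. In the beta cluster 16 of 16 members share no exon base with another member, although a median of 13.5% of their 50-base stretches also occurs in another member. The sources used here do not say how reads in shared exons were counted, so values of single alpha and gamma members are uncertain. The library kit does not mark strand, and exons of 8 alpha, 13 beta and 1 gamma members overlap those of genes outside the family.

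Most of the promoters carry a short sequence in common. It is shown here for a choice of members that differed between the groups and of abundant or closely related members. PCDHB1, PCDHGB6, PCDHGA11 and PCDHGA3 are not shown, although their log2 fold changes were larger in size than those of PCDHA1 and PCDHB12. Known from comparisons of these genes across mammals, a conserved element upstream of most members has CGCT at its core. Each sequence is the 100 bases just before the transcript start in RefSeq's annotation of GRCh38.p14, on the plus strand. Every CGCT is in capitals, whether or not it is part of the conserved element.
PCDHGB5 chr5:141397847-141397946: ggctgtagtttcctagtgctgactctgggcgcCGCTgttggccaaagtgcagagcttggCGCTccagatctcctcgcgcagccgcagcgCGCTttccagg
PCDHGB4 chr5:141387598-141387697: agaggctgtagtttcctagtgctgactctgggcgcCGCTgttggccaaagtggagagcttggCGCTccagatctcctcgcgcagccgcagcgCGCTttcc
PCDHA10 chr5:140855797-140855896: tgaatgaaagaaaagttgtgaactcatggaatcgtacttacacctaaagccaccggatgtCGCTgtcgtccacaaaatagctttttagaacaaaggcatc
PCDHA1 chr5:140786040-140786139: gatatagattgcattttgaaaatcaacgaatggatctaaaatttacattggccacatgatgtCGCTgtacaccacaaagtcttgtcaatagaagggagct
PCDHA6 chr5:140827860-140827959: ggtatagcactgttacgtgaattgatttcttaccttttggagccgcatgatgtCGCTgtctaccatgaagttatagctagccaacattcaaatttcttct
PCDHB12 chr5:141208619-141208718: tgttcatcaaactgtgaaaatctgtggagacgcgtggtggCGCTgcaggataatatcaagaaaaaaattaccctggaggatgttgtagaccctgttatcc
PCDHB13 chr5:141213819-141213918: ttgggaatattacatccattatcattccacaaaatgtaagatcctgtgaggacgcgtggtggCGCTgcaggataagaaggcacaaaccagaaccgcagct
PCDHGC3 chr5:141475866-141475965: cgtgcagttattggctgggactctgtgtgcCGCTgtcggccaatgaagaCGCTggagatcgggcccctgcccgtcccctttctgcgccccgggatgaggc
PCDHGB5 and PCDHGB4 have CGCT at the same 3 places once shifted by 3 bases, share a run of 49 bases in this window, and were identical at 75.1% of 297 aligned bases of the whole promoter. The longest run common to the 3 alpha windows was gatgtCGCTgt. PCDHB12 and PCDHB13 share gacgcgtggtggCGCTgcaggataa, while their whole promoters were identical at 40.3% of 278 aligned bases. The promoter of PCDHB13 was closer to that of PCDHB8, at 93.8% of 259 aligned bases, and PCDHB13 was higher and PCDHB8 lower with POLK sgRNA. These identities were counted without gaps at the best single offset, so an inserted or lost base can lower them. By the same measure PCDHB16 and PCDHB8 were identical at 34.3% of bases, and PCDHA10 and PCDHA8 at 33.7%.

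Of the 53 members, 47 had a promoter in the RefSeq table. CGCT on the gene's strand was present in the 100 bases before the start of 44 of them (93.6%), against 28.1% of all 27305 promoters in the table. The letters were counted wherever they stood in the window, so this is not a count of the conserved element. The window of PCDHA9, PCDHB8 and PCDHGB2 did not hold these letters. On either strand of the whole promoter, which adds bases before and after, the shares were 97.9% of the members and 69.4% of all promoters. A longer form, TGGCGCT, which includes CGCT and was chosen from runs frequent in these promoters, stood on the gene's strand of 12 of 14 beta promoters (85.7%), 2 of 20 gamma promoters (10.0%) and 0 of 13 alpha promoters, against 0.8% of all promoters. Members that were higher and members that were lower in the POLK sgRNA libraries both carried CGCT, as PCDHGB5 and PCDHGB4 show above. With CGCT in 93.6% of the members' windows this was bound to be so, and it tells nothing of direction.

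Across the family, more members were higher than lower with POLK sgRNA. At an adjusted p under 0.05, 25 of 53 members were higher (47.2%), against 32.8% of all 13930 genes tested, and 8 were lower (15.1%), against 31.6% of all genes. The other 20 members did not pass the test. The median log2 fold change over the members was 0.26, and over all genes it was 0.01. With a change of at least 2-fold as well, 7 members were higher (13.2%; 3.63% of all genes) and 1 was lower (1.89%; 3.21% of all genes). Of the members, 38 (71.7%) had CPM that did not overlap between the groups, close to the 67.7% of all genes. In bulk RNA a lower value can come from fewer cells that transcribe a member or from less RNA per cell, and these cannot be told apart. The summed level of all members was 476.0 ± 0.30 CPM with POLK sgRNA and 457.6 ± 3.02 CPM with control sgRNA (SD, n = 3 each).

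**Figure D1:**
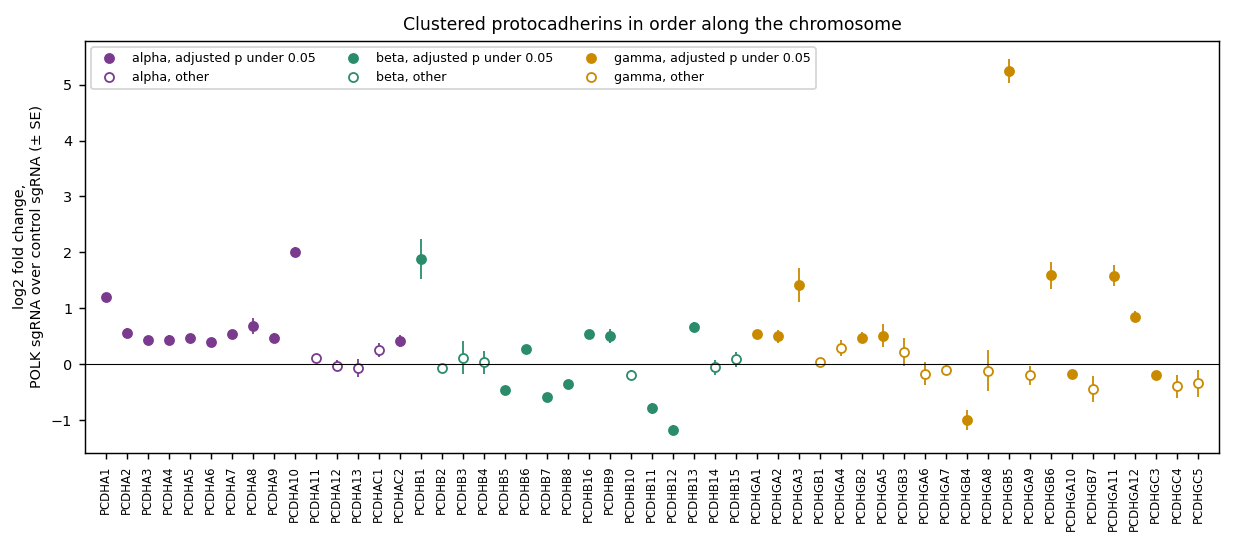
Log2 fold change (POLK sgRNA over control sgRNA, ± SE, n = 3 each) of the 53 members in chromosomal order, filled where the adjusted p was under 0.05. Alpha members from PCDHA1 to PCDHA10 all lie above 0, beta members lie on both sides, and PCDHGB5 stands highest at 5.24.

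In the alpha cluster the change was in 1 direction: 11 of 15 members were higher with POLK sgRNA and none was lower (73.3%, against 32.8% of all genes; quasi-likelihood test in edgeR). None was lower at an unadjusted p under 0.05 either, or with DESeq2 or limma-voom. The summed alpha level was 119.2, 118.1 and 119.7 CPM with POLK sgRNA, against 81.7, 81.9 and 81.0 CPM with control sgRNA. That is 46.0% more, with an SD of 0.82 CPM with POLK sgRNA and 0.46 CPM with control sgRNA. The median log2 fold change of the 15 members was 0.44.

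The alpha member with the largest rise was PCDHA10 (chr5:140855883-141012344). It had 11.7, 12.4 and 12.8 CPM with POLK sgRNA, against 3.34, 3.30 and 2.54 CPM with control sgRNA. Each POLK sgRNA library was thus several times above every control library, and the log2 fold change was 2.00 (SE 0.08, adjusted p = 1.5e-20, edgeR's quasi-likelihood test). Of its 15224 exon bases, 2745 overlap exons of genes outside the family. PCDHA1 (chr5:140786136-141012347), the first gene of the cluster, had 8.40, 7.78 and 8.74 CPM with POLK sgRNA, against 3.71, 3.55 and 3.58 CPM with control sgRNA. Its groups lay far apart as well, with a log2 fold change of 1.20 (SE 0.08, adjusted p = 7.1e-15, same test).

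The most abundant alpha member changed less. PCDHA6 (chr5:140827958-141012344) had 29.4, 28.2 and 28.8 CPM with POLK sgRNA, against 21.5, 22.7 and 21.3 CPM with control sgRNA. Those groups did not overlap, with a log2 fold change of 0.40 (SE 0.04, adjusted p = 4.1e-10, same test). Per kb of exon PCDHA6 also led the cluster, at 4.70 ± 0.10 CPM per kb with POLK sgRNA and 3.56 ± 0.12 CPM per kb with control sgRNA. PCDHA7 had 11.8, 12.3 and 10.98 CPM with POLK sgRNA, against 7.49, 8.79 and 7.64 CPM with control sgRNA. Its log2 fold change of 0.54 (SE 0.07) was again larger than the spread between libraries (adjusted p = 1.8e-08).

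From PCDHA1 to PCDHA10, which follow each other on the chromosome, 10 of 10 members were higher, against 32.8% of all genes. Their log2 fold changes were 0.40 to 2.00. The next 3 along the chromosome, PCDHA11, PCDHA12 and PCDHA13, did not pass the test, at 0.11, −0.03 and −0.06, and their libraries overlapped between the groups. This division of the cluster was made after the values were seen, and the members share constant exons, so their calls may not be independent. Summed, PCDHA1 to PCDHA10 had 100.5 ± 0.86 CPM with POLK sgRNA and 64.7 ± 0.75 CPM with control sgRNA, and PCDHA11 to PCDHA13 had 12.5 ± 0.47 CPM with POLK sgRNA and 12.1 ± 0.33 CPM with control sgRNA. Of the C-type members, PCDHAC2, which in mouse is needed for the even spacing of serotonergic axons, was higher, with 3.54 ± 0.18 CPM with POLK sgRNA and 2.65 ± 0.07 CPM with control sgRNA (log2 fold change 0.42, adjusted p = 7.4e-04, edgeR). PCDHAC1 had 2.51 ± 0.25 CPM with POLK sgRNA and 2.11 ± 0.05 CPM with control sgRNA, a difference that did not pass (adjusted p = 0.067, edgeR). It passed when POLK sgRNA library 2 was left out (0.029).

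How reads of the constant exons entered the alpha counts is not stated. If they entered every member's count alike, the lowest member of a library would set the most that such a common part could be, which is 15.6% to 26.2% of the summed alpha count. With the lowest member's count taken off every member the log2 ratio of the alpha sums was 0.65, against 0.55 as counted, an alternative chosen after seeing the data.

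**Figure D2:**
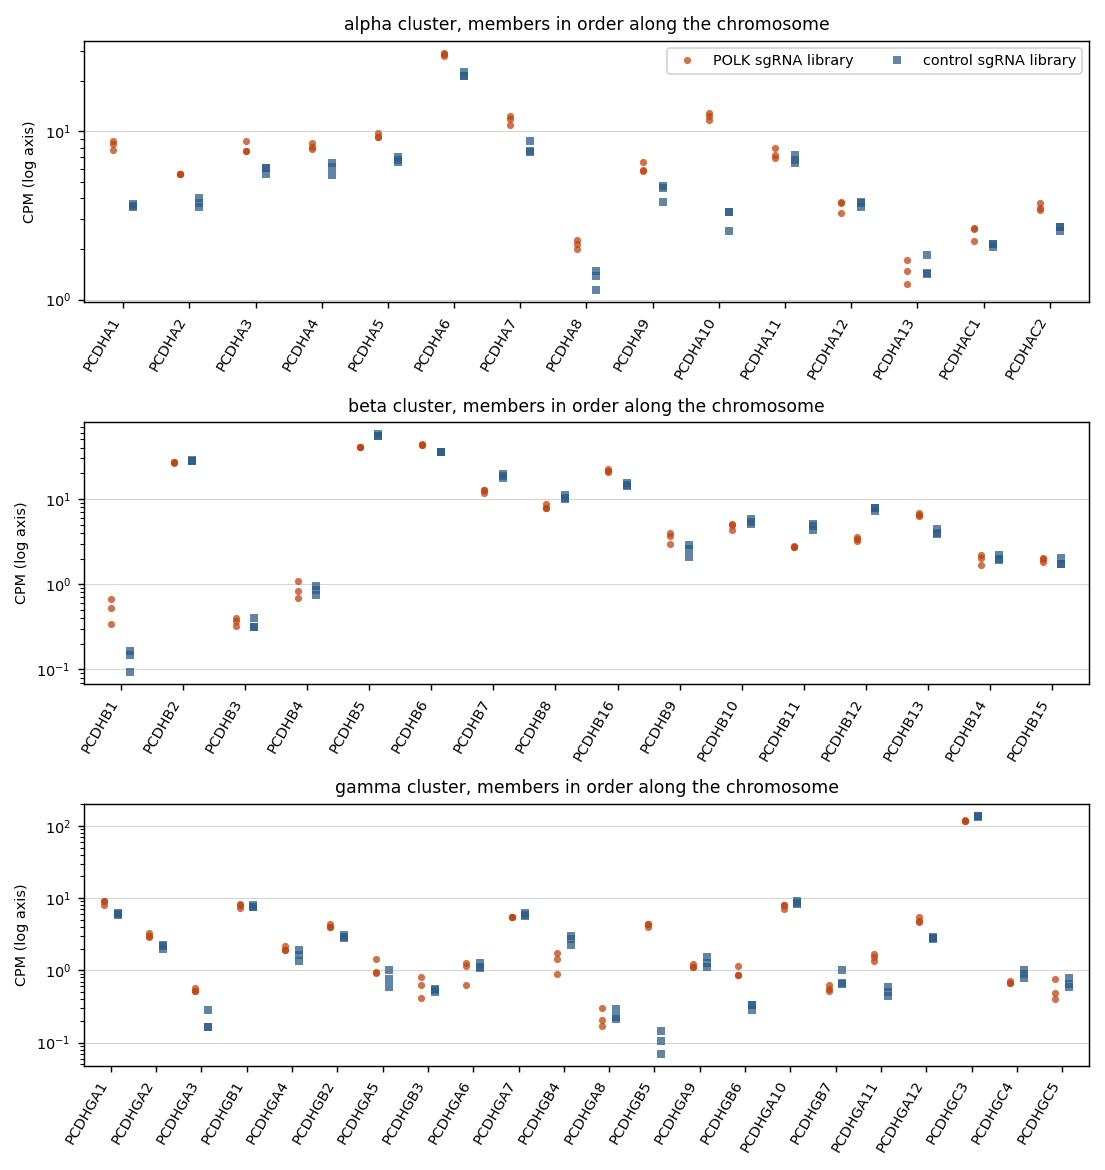
CPM of every member in each of the 6 libraries (log axis), with the 3 POLK sgRNA libraries as circles to the left of the 3 control libraries as squares. The circles of PCDHA1, PCDHA10 and PCDHGB5 lie well above the squares, and those of PCDHB12 lie well below them.

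In the beta cluster as many members were lower as were higher. Of 16 members 5 were higher with POLK sgRNA (PCDHB1, PCDHB6, PCDHB9, PCDHB13 and PCDHB16), 5 were lower (PCDHB5, PCDHB7, PCDHB8, PCDHB11 and PCDHB12) and 6 did not pass the test. Both shares are close to those of all genes. The median log2 fold change was −0.01, and the summed level was 178.0, 180.2 and 181.0 CPM with POLK sgRNA, against 192.6, 192.0 and 195.0 CPM with control sgRNA. The sums did not overlap, with a ratio of 0.930.

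The most abundant beta genes moved in opposite directions. PCDHB5 (chr5:141135218-141138625) had 40.4, 41.1 and 40.7 CPM with POLK sgRNA, against 55.3, 55.1 and 57.4 CPM with control sgRNA. All POLK sgRNA libraries were lower, with a log2 fold change of −0.46 (SE 0.03, adjusted p = 4.1e-14, edgeR's quasi-likelihood test). PCDHB6 (chr5:141150022-141153287), the next gene along the chromosome, had 42.7, 43.7 and 42.9 CPM with POLK sgRNA, against 35.2, 35.6 and 35.9 CPM with control sgRNA. It was higher in all POLK sgRNA libraries, with a log2 fold change of 0.28 (SE 0.03, adjusted p = 1.8e-08, same test). Per kb of exon PCDHB6 was above PCDHB5 with POLK sgRNA, at 13.2 ± 0.17 and 11.9 ± 0.10 CPM per kb. With control sgRNA the order was the other way round, with PCDHB6 at 10.9 ± 0.11 and PCDHB5 at 16.4 ± 0.37 CPM per kb. Per kb of exon that no other gene shares, however, PCDHB5 stood above PCDHB6 in both groups, so the order with POLK sgRNA depends on the length used. PCDHB2 had 27.3, 26.4 and 27.4 CPM with POLK sgRNA, against 28.7, 27.9 and 28.0 CPM with control sgRNA. The libraries of PCDHB2 just failed to overlap, but the difference did not pass the test (log2 fold change −0.06, adjusted p = 0.19, edgeR).

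Other neighbours in the beta cluster also differed in direction. PCDHB12 (chr5:141208697-141212571) had 3.55, 3.23 and 3.39 CPM with POLK sgRNA, against 7.79, 7.29 and 7.81 CPM with control sgRNA. It was the only member that was lower by at least 2-fold, with a log2 fold change of −1.16 (SE 0.08, adjusted p = 3.1e-14, edgeR's quasi-likelihood test). PCDHB13 (chr5:141213919-141218979), which starts just after it, had 6.51, 6.37 and 6.80 CPM with POLK sgRNA, against 4.01, 4.41 and 3.85 CPM with control sgRNA. Its log2 fold change was 0.68 (SE 0.08, adjusted p = 1.3e-08, same test), so the order of these 2 genes differed between the groups, per kb of exon too. PCDHB12 had 0.875 ± 0.042 CPM per kb with POLK sgRNA and 1.97 ± 0.077 CPM per kb with control sgRNA, and PCDHB13 had 1.30 ± 0.043 CPM per kb with POLK sgRNA and 0.809 ± 0.057 CPM per kb with control sgRNA.

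PCDHB11, which precedes PCDHB12, had 2.71, 2.74 and 2.84 CPM with POLK sgRNA, against 4.29, 5.15 and 4.79 CPM with control sgRNA. That is a log2 fold change of −0.79 (SE 0.10, adjusted p = 2.0e-08, edgeR), with no overlap. PCDHB7 had 12.8, 11.8 and 12.6 CPM with POLK sgRNA, against 19.9, 18.6 and 17.8 CPM with control sgRNA. It was lower in every POLK sgRNA library (log2 fold change −0.59, SE 0.05, adjusted p = 1.7e-11, edgeR). PCDHB8 was lower by a log2 fold change of −0.35 and shares more sequence with other members than any other beta gene, with 45.7% of its 50-base stretches found elsewhere in the family. PCDHB16 and PCDHB9, the next genes along the chromosome, were higher, by log2 fold changes of 0.54 and 0.50.

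PCDHB1, the first beta gene, was at the low end. It had 0.525, 0.342 and 0.674 CPM with POLK sgRNA, against 0.0934, 0.147 and 0.167 CPM with control sgRNA. The libraries did not overlap, and the log2 fold change was 1.89 (SE 0.36, adjusted p = 2.3e-05, edgeR), on 4 to 8 reads in each control library. The members that did not pass were PCDHB2, PCDHB3, PCDHB4, PCDHB10, PCDHB14 and PCDHB15, with log2 fold changes between −0.18 for PCDHB10 and 0.12 for PCDHB3. PCDHB10 passed without control library 2 (adjusted p = 0.040, edgeR) or without POLK sgRNA library 3 (0.037).

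Most gamma counts came from 1 gene, PCDHGC3. Of 22 members 9 were higher with POLK sgRNA (40.9%, against 32.8% of all genes), 3 were lower (13.6%, against 31.6% of all genes) and 10 did not pass the test, with a median of 0.13 on the log2 scale. The share that was higher is not far from that of all genes. The subfamilies are given below by their sums and counts, and a difference between them was not tested. The gamma sum was 178.4, 177.8 and 175.4 CPM with POLK sgRNA, against 180.2, 184.0 and 184.5 CPM with control sgRNA. The gamma A members summed to 37.6 ± 0.14 CPM with POLK sgRNA and 31.2 ± 0.63 CPM with control sgRNA, and 6 of 12 were higher and 1 lower. The gamma B members summed to 19.7 ± 0.42 CPM with POLK sgRNA and 15.01 ± 0.46 CPM with control sgRNA, and 3 of 7 were higher and 1 lower. The gamma C members summed to 119.9 ± 1.64 CPM with POLK sgRNA and 136.6 ± 2.99 CPM with control sgRNA, and 1 of 3 was lower. Left without PCDHGC3, the gamma sum was 58.5 ± 0.46 CPM with POLK sgRNA and 47.8 ± 0.80 CPM with control sgRNA, so the direction of the gamma sum turns with that gene.

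**Figure D3:**
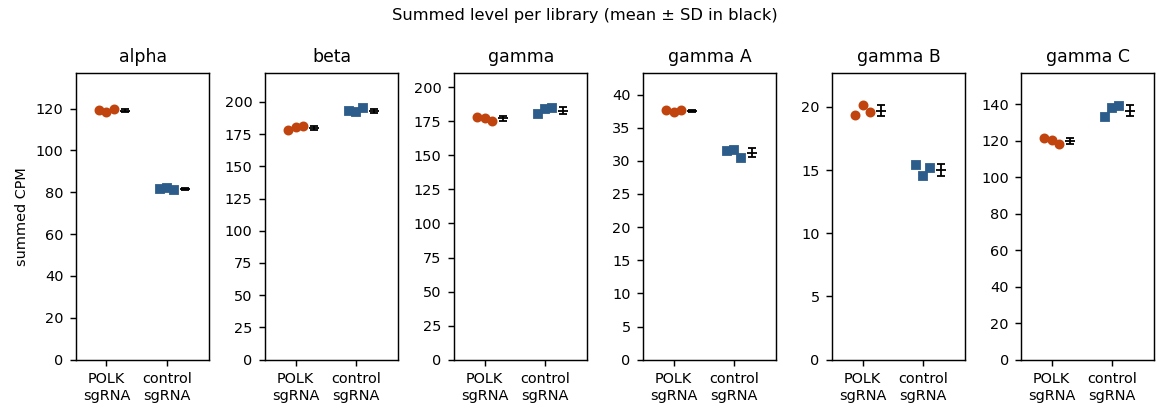
Summed CPM per library for the alpha, beta and gamma clusters and the gamma subfamilies, with POLK sgRNA (circles, left) and control sgRNA (squares, right) and the mean ± SD in black (n = 3 each). The alpha, gamma A and gamma B sums are higher with POLK sgRNA and the beta, gamma and gamma C sums are lower, and the libraries overlap in none of the 6 panels.

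PCDHGC3 (chr5:141475947-141512979), the C-type member that in mouse promotes the branching of dendrites through Axin1, had 120.3, 118.8 and 117.0 CPM with POLK sgRNA, against 131.6, 136.1 and 137.5 CPM with control sgRNA. Every POLK sgRNA library was lower, by a log2 fold change of −0.19 (SE 0.03, adjusted p = 1.2e-07, edgeR's quasi-likelihood test). Per kb of exon it was the highest of all 53 members, at 21.9 ± 0.31 CPM per kb with POLK sgRNA and 24.9 ± 0.57 CPM per kb with control sgRNA. The other gamma C members were far below it and did not pass the test. PCDHGC4, which in mouse supports the survival of inhibitory neurons, had 0.681 ± 0.029 CPM with POLK sgRNA and 0.897 ± 0.11 CPM with control sgRNA (adjusted p = 0.086, edgeR). PCDHGC5 had 0.547 ± 0.18 CPM with POLK sgRNA and 0.675 ± 0.10 CPM with control sgRNA (adjusted p = 0.23, edgeR).

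The largest difference in the family was at PCDHGB5 (chr5:141397987-141512979). It had 4.34, 3.996 and 4.39 CPM with POLK sgRNA, against 0.0700, 0.147 and 0.104 CPM with control sgRNA. These are 248, 187 and 215 reads with POLK sgRNA, against 3, 8 and 5 reads with control sgRNA. The gene was therefore near the limit of detection in the control libraries and clearly present in all POLK sgRNA libraries, with a log2 fold change of 5.24 (SE 0.21, adjusted p = 3.5e-21, same test). The part of reads from the shared constant exons in these counts was not tested. If such reads entered every gamma member's count alike, the lowest member of a library would set the most they could be. That is 17, 8 and 10 reads with POLK sgRNA and 3, 8 and 5 reads with control sgRNA.

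PCDHGB4, whose promoter resembles that of PCDHGB5 in the sequences above, was lower. It had 0.893, 1.73 and 1.45 CPM with POLK sgRNA, against 2.71, 2.27 and 3.02 CPM with control sgRNA. The libraries did not overlap, with a log2 fold change of −0.99 (SE 0.18, adjusted p = 8.7e-05, edgeR). Its gene model shares 4447 exon bases with that of PCDHGA8, the next gene along the chromosome. These include the 2181 bases that every gamma member contains. PCDHGA8 had 0.224 ± 0.066 CPM with POLK sgRNA and 0.244 ± 0.043 CPM with control sgRNA.

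Further gamma genes at low levels were higher. PCDHGB6 had 0.858, 0.876 and 1.14 CPM with POLK sgRNA, against 0.280, 0.330 and 0.333 CPM with control sgRNA. PCDHGA11 had 1.37, 1.67 and 1.53 CPM with POLK sgRNA, against 0.583, 0.494 and 0.437 CPM with control sgRNA. Both had a log2 fold change of 1.59 (SE 0.24 and 0.19, adjusted p = 7.3e-07 and 1.1e-08, edgeR), and in both all POLK sgRNA libraries were above all control libraries. PCDHGA3 had 0.525, 0.577 and 0.510 CPM with POLK sgRNA, against 0.280, 0.165 and 0.167 CPM with control sgRNA (log2 fold change 1.42, SE 0.31, adjusted p = 1.5e-04, edgeR). PCDHGA12, the last gamma A gene, averaged 5.004 ± 0.44 CPM with POLK sgRNA and 2.78 ± 0.09 CPM with control sgRNA, a log2 fold change of 0.86. PCDHGA1, PCDHGA2 and PCDHGB2, near the start of the cluster, were higher by log2 fold changes of 0.55, 0.50 and 0.48.

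Other gamma A and B genes differed little, or passed the test only under some settings. PCDHGB1 had 8.14, 8.21 and 7.29 CPM with POLK sgRNA, against 8.004, 7.64 and 7.43 CPM with control sgRNA. The libraries overlapped, and the log2 fold change was 0.04 (SE 0.07, adjusted p = 0.66, edgeR). PCDHGA10 had 7.998, 7.07 and 7.96 CPM with POLK sgRNA, against 8.57, 9.01 and 8.25 CPM with control sgRNA. Those libraries did not overlap, but the log2 fold change of −0.16 (adjusted p = 0.041, edgeR) was not called with a replicate block (0.051), with library size alone (0.067), with DESeq2 (0.099) and without control library 1 (0.057), control library 2 (0.17) or POLK sgRNA library 2 (0.22). PCDHGA5 had 0.928, 1.43 and 0.959 CPM with POLK sgRNA, against 1.003, 0.586 and 0.750 CPM with control sgRNA. Its libraries overlapped, and the log2 fold change of 0.52 (adjusted p = 0.035, edgeR) was no longer called with the block (0.063), DESeq2 (0.11) or limma-voom (0.055), or without control library 2 (0.23), control library 3 (0.082) or POLK sgRNA library 2 (0.27). PCDHGA4 was not called at 0.30 (adjusted p = 0.065, edgeR) but passed without control library 2 (0.023). The other 6 gamma A and B members that did not pass, PCDHGB3, PCDHGA6, PCDHGA7, PCDHGA8, PCDHGA9 and PCDHGB7, had log2 fold changes between −0.44 and 0.22.

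Shares of a cluster's counts, which do not depend on how libraries are scaled, describe how the counts divide among members. They are not corrected for exon length, and in the alpha and gamma clusters they depend on how shared exons were counted. In the alpha cluster PCDHA6 held 24.2 ± 0.40% of the counts with POLK sgRNA and 26.8 ± 0.78% with control sgRNA, and PCDHA10 held 10.3 ± 0.46% with POLK sgRNA and 3.75 ± 0.53% with control sgRNA. PCDHA1 took 6.98 ± 0.36% with POLK sgRNA and 4.43 ± 0.10% with control sgRNA. In the beta cluster the leading share was that of PCDHB6 with POLK sgRNA, 24.0 ± 0.28% against 18.4 ± 0.15% with control sgRNA. With control sgRNA it was that of PCDHB5, which held 22.7 ± 0.16% with POLK sgRNA and 28.9 ± 0.42% with control sgRNA. PCDHGC3 made up 67.0 ± 0.40% of gamma counts with POLK sgRNA and 73.9 ± 0.76% with control sgRNA. PCDHGB5 held 2.39 ± 0.13% with POLK sgRNA and 0.0583 ± 0.0205% with control sgRNA (SD, n = 3 each).

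**Figure D4:**
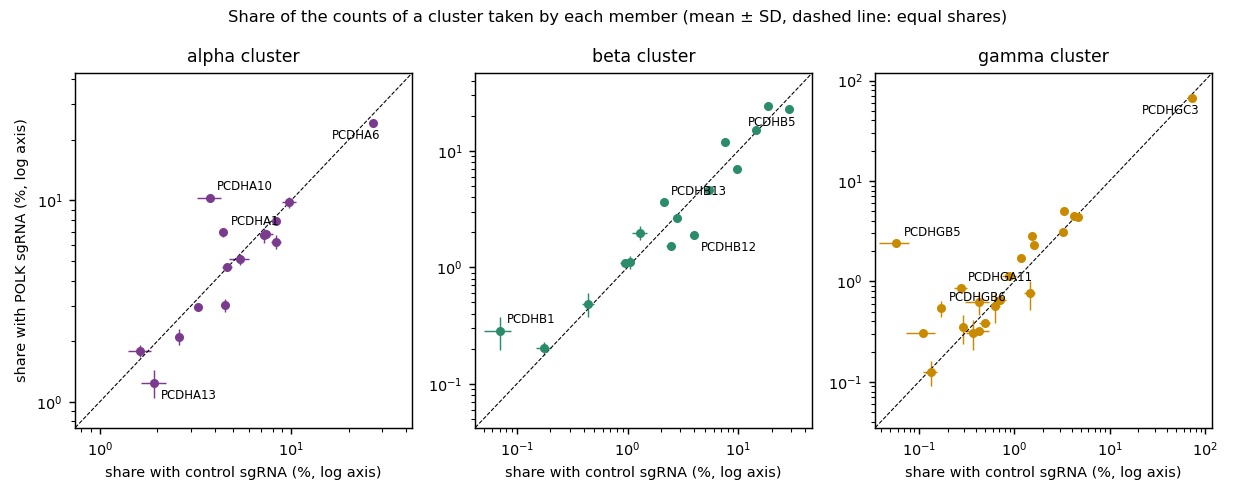
Share of a cluster's counts taken by each member (mean ± SD, n = 3 each, log axes), with POLK sgRNA on the vertical and control sgRNA on the horizontal axis and a dashed line of equal shares. PCDHA10 and PCDHGB5 lie far above the line, at 10.3% and 2.39% with POLK sgRNA, and PCDHB12 lies below it.

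The genes around the clusters were called about as often as all genes. Of 33 tested neighbours that lie between the clusters or start within 1 Mb of the outermost members, 12 were higher, 9 were lower and 12 did not pass, with a median log2 fold change of 0.04. Over all genes 32.8% were higher and 31.6% lower. Before the alpha cluster the median was 0.03 over 20 genes and after the gamma cluster 0.02 over 12. The neighbours with the smallest p were SPRY4, an inhibitor of receptor tyrosine kinase signalling, at −0.29, TMCO6 at 0.61 and SLC35A4 at −0.27. TAF7, a subunit of the general transcription factor TFIID that lies between the beta and gamma clusters, was higher by 0.15.

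**Figure D5:**
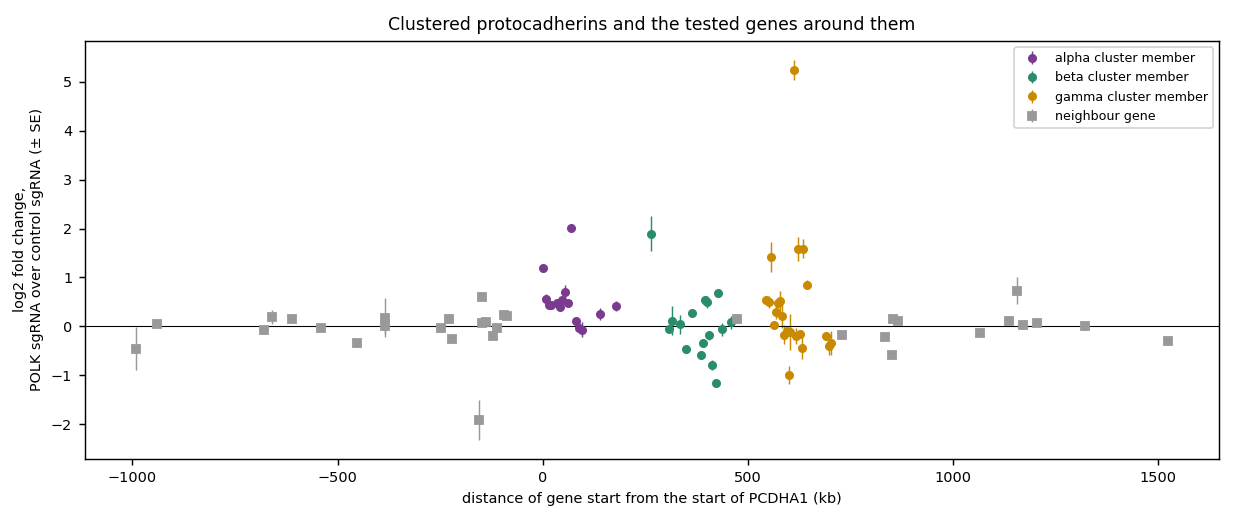
Log2 fold change (POLK sgRNA over control sgRNA, ± SE) of members (circles) and tested neighbour genes (squares) by the distance of the gene start from that of PCDHA1 in kb. Neighbour genes lie mostly close to 0, with CD14, a gene near the limit of detection, at −1.91, and the members reach from −1.16 for PCDHB12 to 5.24 for PCDHGB5.

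A list of 26 genes drawn up here held genes tied to the choice of these promoters and general genes of chromatin, its looping and DNA methylation. Of the 26, 6 were higher and 13 lower with POLK sgRNA, with a median log2 fold change of −0.06. Over all genes 32.8% were higher and 31.6% lower. DNMT3B, a DNA methyltransferase that in mouse sets the methylation of these promoters early in development, had 10.97 ± 0.61 CPM with POLK sgRNA and 6.08 ± 0.44 CPM with control sgRNA (log2 fold change 0.84, adjusted p = 2.0e-12, edgeR). DNMT3A, the related methyltransferase, was lower, with 19.2 ± 1.1 CPM with POLK sgRNA and 24.5 ± 1.1 CPM with control sgRNA (−0.35, adjusted p = 9.5e-08, edgeR). CTCF had 109.9 ± 2.3 CPM with POLK sgRNA and 134.7 ± 3.1 CPM with control sgRNA (−0.29, adjusted p = 1.1e-11, edgeR). UHRF1, which keeps methylation in place through replication, was lower by a log2 fold change of −0.19. Cohesin subunits changed in both directions: RAD21 and SMC1A were higher, at 0.10 and 0.16, STAG1 and STAG2 were lower, at −0.09 and −0.12, and SMC3 did not pass the test, at 0.03. WAPL, which releases cohesin from DNA, was lower, at −0.12. The part of these genes in the members' values was not tested.

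Non-clustered protocadherins and other large cadherins, which lie elsewhere in the genome or apart from the clusters, had 9 of 22 tested genes higher and 7 lower, with a median log2 fold change of 0.06. These counts are near the shares of all genes, 32.8% higher and 31.6% lower. PCDH10, an adhesion protein of the delta protocadherins, had 54.4 ± 3.1 CPM with POLK sgRNA and 20.8 ± 0.26 CPM with control sgRNA (log2 fold change 1.38, adjusted p = 2.8e-24, edgeR). PCDH15, a part of the tip links of hair cells in the inner ear, had 5.31 ± 0.28 CPM with POLK sgRNA and 0.920 ± 0.16 CPM with control sgRNA (2.51, adjusted p = 2.4e-18, edgeR). CDHR1, a photoreceptor cadherin, had 0.626 ± 0.042 CPM with POLK sgRNA and 4.30 ± 0.23 CPM with control sgRNA (−2.77, adjusted p = 2.5e-18, edgeR).

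A list of partners of the protocadherin cytoplasmic ends also held other related genes, among them ADAM10, NLGN1, RAC1 and RHOA. Of its 21 tested genes, 12 were lower and 2 higher, with a median log2 fold change of −0.09. Over all genes 31.6% were lower and 32.8% higher. CYFIP2, a subunit of the WAVE complex that drives branched actin, had 26.3 ± 1.1 CPM with POLK sgRNA and 43.1 ± 0.44 CPM with control sgRNA (log2 fold change −0.71, adjusted p = 1.6e-17, edgeR). BRK1, another WAVE subunit, was lower, at −0.34. PTK2, the focal adhesion kinase, which binds the cytoplasmic ends of protocadherins, had 109.9 ± 0.77 CPM with POLK sgRNA and 140.6 ± 3.6 CPM with control sgRNA (−0.35, adjusted p = 5.1e-14, edgeR).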

How the data were processed

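RNA was sequenced from 6 libraries of A375 cells, 3 with POLK sgRNA and 3 with control sgRNA. The authors deposited raw counts per gene for 16934 genes (whole numbers, 42852645 to 56891905 per library), of which 210 have no symbol. The submitters' processing notes name FastQC, Trimmomatic, STAR, DESeq2 and the build GRCh38. No source used here gives the counting tool, its treatment of shared exons or the annotation.

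The filterByExpr function of edgeR 4.0.16 (minimum count 10, minimum total 15) left 13930 genes. The main test was edgeR's quasi-likelihood F test in R 4.3.3 (two-sided, robust, TMM scaling, no covariates). P-values were adjusted by the Benjamini-Hochberg method over all 13930 genes, and 0.05 was the threshold. The SE was obtained by dividing the size of a log2 fold change by the square root of F. CPM use TMM-scaled library sizes. Sums over members have no test. The spread between libraries of a group was a biological coefficient of variation of 2.42%, and pairs of libraries of a group differed beyond sampling noise (chi-square over its degrees of freedom 1.95 to 3.90, and 60.6 to 73.1 between groups), so none was counted as a duplicate. The test was checked on simulated counts for this comparison (13831 genes, 50 changed at each fold). It recovered 76% of genes changed 1.25-fold, 90% at 1.5-fold, 94% at 2-fold and 100% at 4-fold, and called 11 of 13730 unchanged genes. Those 13730 include some that the filter removed before the test. Every simulated gene had the same dispersion and only 200 were changed, unlike these data. The check therefore does not cover members whose counts vary more than that.

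The members and lists were chosen with earlier results of these data known. Named were POLK, the members with an adjusted p under 0.05 or a mean of at least 1 CPM in either group (per library for the 3 most abundant of each cluster and the 5 most changed members in each direction), and the 3 genes with the smallest p of each list. Genes named or given per library beyond this rule, among them RAD21, SMC1A, SMC3, STAG1, STAG2, WAPL, DNMT3A, SOX10, NEFL, CD14, PCDHA1, PCDHB13, PCDHGA3 and PCDHGA5, were chosen after their values were seen. Exons and positions came from GENCODE 29, which uses the authors' build, and promoters from RefSeq (GRCh38.p14), 1 per gene. Alternatives were DESeq2's size factors (RLE), library size alone, no filter, a mean CPM of at least 1, limma-voom (limma 3.58.1), DESeq2 1.42.0, the replicate number as a block, each library left out, and exon length not shared with other genes. The subtraction of the lowest member and the gamma sum without PCDHGC3 were chosen after seeing the data.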

Additional observations from a re-analysis of the deposited data

How the results depend on the processing

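Counts of called members held within 1.5 times under each alternative run. Members called higher numbered 21 to 25 and members called lower 7 to 9, against 25 and 8 as reported, and over all genes 4002 to 4877 were higher and 4075 to 4511 lower. The 21 came from a filter on a mean of 1 CPM, which left 42 members to test. With the replicate number as a block, 24 members were called higher and 7 lower, with PCDHGA5 and PCDHGA10 no longer called and no other call of a member changed. Equal numbers did not pair the libraries, with correlations of their deviations of −0.01, −0.04 and 0.01. The log2 ratio of the alpha sums was 0.55 as reported, 0.56 with library size alone and 0.65 with the lowest member taken off. The log2 ratio of the gamma sums was −0.05 as reported and turned to 0.29 without PCDHGC3. Of 607 comparisons of 47 named genes with alternatives, 586 kept direction and side of the threshold, 12 lost the call, 4 gained it and 5 changed sign, none of them a called gene. Leaving out 1 library gave log2 fold changes of −0.071 to 0.036 for PCDHA12, −0.20 to 0.05 for PCDHA13, −0.14 to 0.057 for PCDHB14 and −0.39 to 0.077 for PCDHGA6. The cause of each change was not tested. Depth limits members under 1 CPM, such as PCDHB1, PCDHGA3 and PCDHGA8, whose control libraries held few reads.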

Other observations

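Markers of cell types other than melanocytes were present at low or mixed levels in both groups, and their part in the members' values was not tested. The counts of called markers below stand beside 32.8% higher and 31.6% lower over all genes tested. Leukocyte markers (4 of 7 tested, 2 higher and 1 lower with POLK sgRNA) summed to 58.3 to 60.6 CPM with POLK sgRNA and 17.9 to 18.2 CPM with control sgRNA, mainly from CD68 and LYZ, while the defining gene PTPRC was at 0.0311 ± 0.0276 CPM with POLK sgRNA and 0.0269 ± 0.0085 CPM with control sgRNA. Fibroblast markers (6 of 7 tested, 3 higher and 2 lower) summed to 29.6 to 29.8 CPM with POLK sgRNA and 20.1 to 20.6 CPM with control sgRNA. Astrocyte and Schwann cell markers (5 of 6 tested, 2 higher and 1 lower) summed to 169.4 to 174.1 CPM with POLK sgRNA and 132.9 to 143.0 CPM with control sgRNA. Keratinocyte and epithelial markers (4 of 5 tested, 2 higher) summed to 130.5 to 137.8 CPM with POLK sgRNA and 86.4 to 89.6 CPM with control sgRNA, nearly all from KRT18, with CDH1 under 1 CPM. Endothelial markers (4 tested, 3 higher and 1 lower) summed to 5.57 to 6.04 CPM with POLK sgRNA and 2.93 to 3.90 CPM with control sgRNA.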
